A study of Mus musculus with 30 samples.

Results

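Bcl11b, Cgnl1, Kctd12b, Rhbg, Fibcd1, Sowaha and Gm2694 are 7 genes, of the 54134 rows of the count table, that showed some of the largest rises in Nr6a1-/- cells during differentiation of mouse embryonic stem cells (ESCs). They were chosen by their higher counts in Nr6a1-/- than in wildtype libraries, at d2 for some and at d4 or after Gdf11 for others. Their genotype differences are therefore described here and not tested.

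The dataset comprised 30 RNAseq libraries in 10 groups of 3 replicates, from Bruce4 ESCs that were wildtype or Nr6a1-/-. Nr6a1 is an orphan nuclear receptor, and the Nr6a1-/- cells were 1 clone with a CRISPR/Cas9 deletion in exon 4 of each allele, so genotype and clone cannot be told apart. All cells received FGF2 for 48 h up to d2, then the Wnt pathway agonist CHIR99021 as well, for 12 h at d2.5 and for a further 12 h at d3, when cultures are taken as neuromesodermal progenitors, the bipotent source of spinal cord and paraxial mesoderm. From d3, cultures were held in the same medium for 24 h (d4) or given Gdf11, a TGF-beta family ligand that ends trunk formation, for 24 h (d4G). The labels do not say whether replicates were separate cultures, so p-values measure only the spread between these samples, which may be technical.

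The 7 genes have little in common by function. Bcl11b encodes a zinc finger transcription factor, paralogous to Bcl11a, that recruits the NuRD and BAF chromatin complexes and is known for its part in T cell and neuron development. Cgnl1 encodes paracingulin, an adaptor protein of apical cell junctions, and Kctd12b belongs to the family of auxiliary subunits of GABA-B receptors. Rhbg encodes an ammonium transporter of the Rh family, and Fibcd1 a transmembrane receptor for acetylated sugars with a fibrinogen-like domain. Sowaha encodes an ankyrin repeat protein, and Gm2694 is a long intergenic non-coding RNA.

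By position in GRCm38, 6 of the 7 genes lie on the minus strand, namely Bcl11b at chr12:107910403-108003602, Cgnl1 at chr9:71626509-71771602, Kctd12b at chrX:153685154-153696391, Rhbg at chr3:88242874-88254709, Fibcd1 at chr2:31813290-31846005 and Sowaha at chr11:53476573-53480274. Gm2694 lies on the plus strand at chr8:87460469-87525554. Of its 11 annotated transcripts, 1 spans Cbln1, a gene on the opposite strand at chr8:87468405-87472609 that encodes a secreted synapse organiser, and 10 start beyond it. The nearest of those 10 starts lies 203 bases from the start of Cbln1. Where the pair overlaps, reads of each cannot be told apart, because whether counting used strand is not given in the sources used here.

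RefSeq promoter windows on GRCm38.p6, from 250 bases before the start to 50 bases after it, were available for 4 of the 7 genes: Bcl11b, Cgnl1, Fibcd1 and Gm2694. The windows of Bcl11b and its paralogue Bcl11a are shown because both genes were higher in Nr6a1-/- cells at every stage. That of Gm2694 is shown because most of its transcripts start head to head with Cbln1, which was also higher at d4. The Gm2694 window begins at 87472866, beyond the start of Cbln1 (87472609) and the nearest start of Gm2694 (87472812). It therefore does not hold the 203 bases between those starts. Letters run 5′ to 3′ on the strand of the gene, at chr12:108003365-108003664, chr11:24080445-24080744 and chr8:87472866-87473165, and capitals mark CpG dinucleotides.
Bcl11b: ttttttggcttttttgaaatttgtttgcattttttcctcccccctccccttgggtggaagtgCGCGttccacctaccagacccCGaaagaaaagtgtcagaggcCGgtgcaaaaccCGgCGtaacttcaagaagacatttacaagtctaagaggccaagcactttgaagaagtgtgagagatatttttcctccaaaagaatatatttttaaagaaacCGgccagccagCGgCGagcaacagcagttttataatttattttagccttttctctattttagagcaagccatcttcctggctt
Bcl11a: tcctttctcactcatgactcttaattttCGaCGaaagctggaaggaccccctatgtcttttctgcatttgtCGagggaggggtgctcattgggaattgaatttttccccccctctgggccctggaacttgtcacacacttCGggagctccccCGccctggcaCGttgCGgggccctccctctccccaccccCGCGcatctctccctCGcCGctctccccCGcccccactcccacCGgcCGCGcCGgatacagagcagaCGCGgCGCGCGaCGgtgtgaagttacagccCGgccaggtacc
Gm2694: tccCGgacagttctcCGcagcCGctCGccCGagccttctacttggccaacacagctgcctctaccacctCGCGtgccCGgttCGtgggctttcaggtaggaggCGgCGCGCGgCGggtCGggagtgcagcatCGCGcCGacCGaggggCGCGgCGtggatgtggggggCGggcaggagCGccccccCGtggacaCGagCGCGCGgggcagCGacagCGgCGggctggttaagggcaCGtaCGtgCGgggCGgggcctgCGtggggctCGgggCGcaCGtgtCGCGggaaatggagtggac
The Bcl11b window held 9 CpG at 43% GC, against a median of 7 CpG and 52.7% GC over 32851 windows. The others were richer, with 23 CpG in Bcl11a, 30 in Cgnl1, 42 in Gm2694 and 46 in Fibcd1, all above the upper quartile of 20. The motif AGGTCA, the core of nuclear receptor sites, was searched on both strands, as were TCAAGGTCA and a direct repeat of AGGTCA with no spacer, the kind of site Nr6a1 is known to bind; both longer motifs contain the core. The core stood in 16.3% of all windows, the longer form in 0.423% and the repeat in 0.00609%. None of them stood in the 4 windows of these genes or in that of Bcl11a, which says only that these letters are not there.

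Library totals ran from 1570714 to 3688197 counts, and 3 counts, the most that a count of 0 was taken to allow, came to between 0.829 and 1.91 CPM (counts per 1e6, scaled by TMM factors) in single libraries. Nr6a1 itself was not lower in Nr6a1-/- libraries, at 256 to 314 CPM against 167 to 186 CPM at d3. The deletions lie inside the gene and reads come from 3′ ends, so its level does not check the labels. The 6 markers of epiblast, the cell type of d2, summed to 2350 to 2400 CPM in wildtype d2 libraries and to 97 to 101 CPM in Nr6a1-/- d4 libraries. The 6 neuromesodermal progenitor markers rose to 742 to 783 CPM in wildtype and 984 to 1130 CPM in Nr6a1-/- libraries at d3. Wildtype d4 replicate 2 stood apart from the other 2 libraries of its group: its epiblast sum was 650 CPM, with 516 CPM of Dnmt3b against 68.7 and 71.1 CPM. Values that rest on this library are given with and without it below. The 5 T cell and blood markers, for Bcl11b, summed to between 4.22 and 23.9 CPM in all libraries, and Cd3g was at 0 in 9 of the 10 groups. The 5 neuron markers summed to 228 to 263 CPM in Nr6a1-/- against 275 to 289 CPM in wildtype libraries at d2. At d4G they summed to 33 to 39.4 against 28.4 to 32.5 CPM, with Dcx at 0 in Nr6a1-/-. At d3 they were also higher in Nr6a1-/- libraries. The 5 neural markers summed to less in these at d2, d2.5 and d3 (6.02 to 11.9 against 18 to 20 CPM at d3). Ranges overlapped at the other stages, and the part of both lists was not tested. The 7 fibroblast markers, for the feeder layer of the stem cells, summed to between 16.5 and 74.8 CPM, with Lum at 0 in every group but Nr6a1-/- d4.

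Over all genes, edgeR's quasi-likelihood test at a false discovery rate (FDR) below 0.05 called 4.07% of 12149 genes between genotypes at d2, where 3 of the 7 members were called higher. At d2.5 it called 6.45% of genes, with 3 members higher and 1 lower. At d3 it called 10.8%, with 1 member higher. At d4 it called 18.9%, with 4 members higher and 1 lower, and at d4G 7.9%, again with 4 higher and 1 lower. As this contrast chose the members, nothing is read from their counts. All 7 passed the filter on low counts. A rise was taken as present at a stage where all 3 Nr6a1-/- libraries lay above all 3 wildtype libraries with a mean at least 2-fold higher, which held for 16 of the 35 combinations of gene and stage. The share of all genes that meet this rule was not computed and the members were chosen on these values, so nothing is read from this count either.

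**Figure D1:**
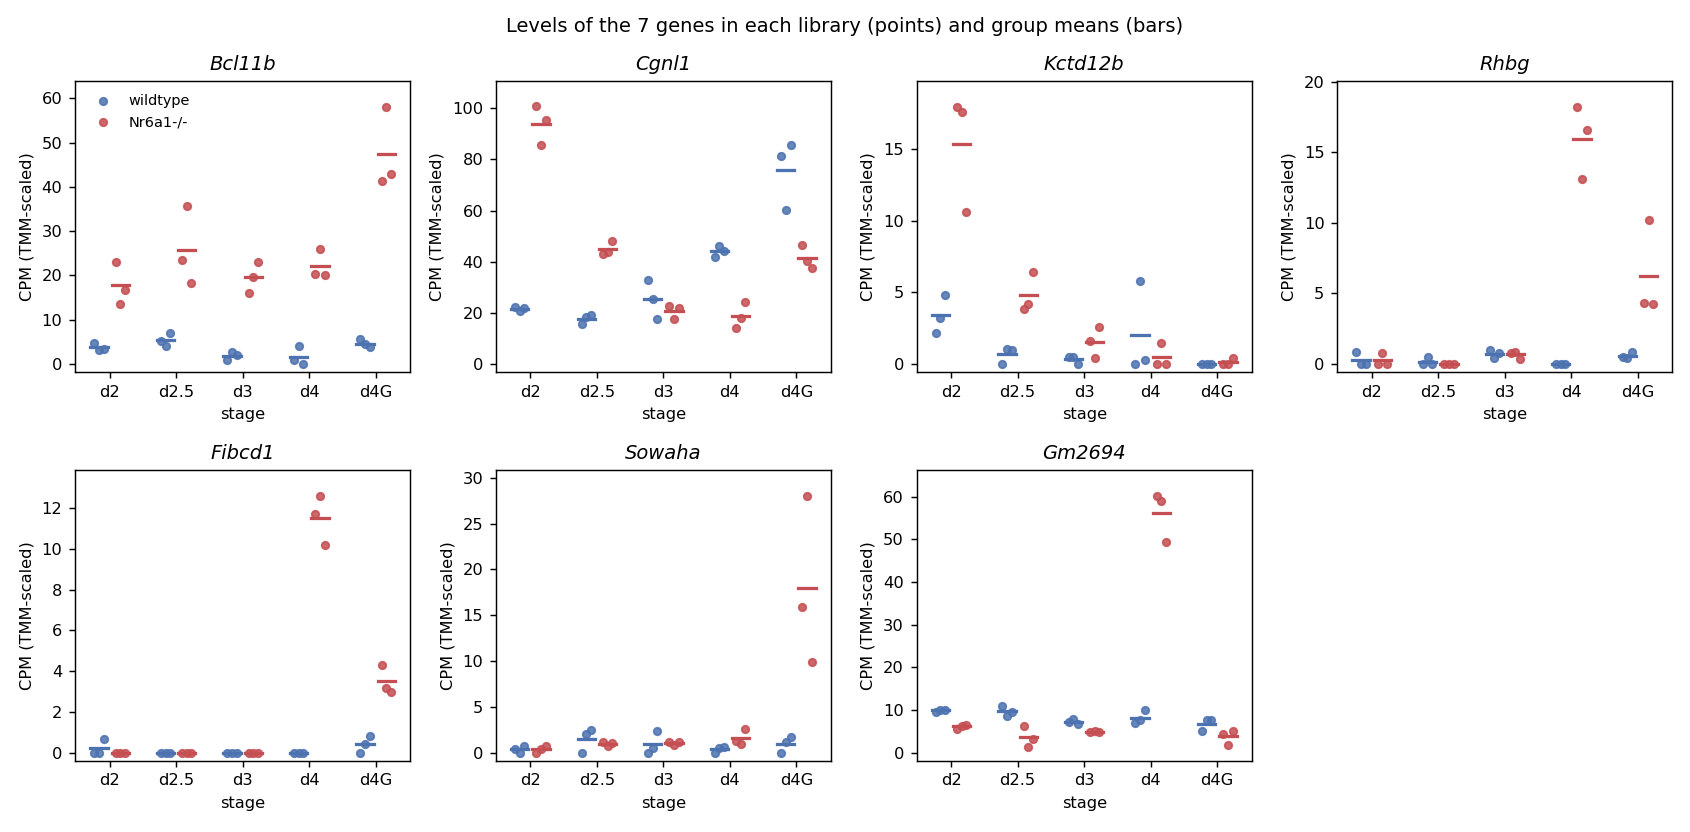
Level of each gene in CPM (TMM-scaled, linear axes) at the 5 stages. Points are the 3 libraries of a group and bars are group means. Only Bcl11b lies above wildtype at all 5 stages; Cgnl1 and Kctd12b are high at d2, Rhbg, Fibcd1 and Gm2694 at d4 and Sowaha at d4G.

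Bcl11b rose from d2 and stayed higher in Nr6a1-/- cells throughout. Its level at d2 was 4.81, 3.19 and 3.44 CPM in the wildtype libraries and 23.1, 13.5 and 16.7 CPM in the Nr6a1-/- libraries, so the groups did not overlap. Pooled counts were 4.55-fold higher in Nr6a1-/- cells (exact 95% interval 2.99 to 7.17, counting error only), and 4.75-fold higher at d2.5 (3.28 to 7.07). Wildtype levels then fell to 1.91 ± 0.902 CPM at d3 (SD, n = 3) while Nr6a1-/- levels were 19.6 ± 3.5 CPM, a ratio of 10.2 (5.79 to 19.6).

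At d4 the wildtype libraries held 2, 15 and 0 counts of Bcl11b and the Nr6a1-/- libraries 47, 54 and 47 counts. The ratio of pooled counts was 12 (7.23 to 21.1), and 61.9 (16.8 to 516) without wildtype replicate 2, which held 15 of the 17 wildtype counts and had the high epiblast markers. With Gdf11 the Nr6a1-/- libraries reached 41.4, 58 and 42.9 CPM, the highest levels of the gene in the series, against 3.79 to 5.58 CPM in wildtype, a ratio of 10.1 (7 to 15.1). Wildtype and Nr6a1-/- levels did not overlap at any stage. Bcl11b was the largest rise of all ranked genes at d2 and d2.5 (of 140 and 314 genes called higher without overlap and with a mean of 10 CPM or more at that stage, which Kctd12b did not reach at d2.5), rank 2 of 489 after Hoxb13 at d3, rank 20 of 924 at d4 and rank 6 of 344 at d4G.

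Bcl11a, the only paralogue of Bcl11b and not among the chosen genes, could be tested and was called higher at all 5 stages. Its mean was 19.9 ± 5.13 CPM in wildtype and 37.8 ± 2.56 CPM in Nr6a1-/- libraries at d2, a log2 fold change of 0.90 (SE 0.26, FDR 0.0379). That call was lost in 5 of the 6 fits that left out 1 library, at 0.73 to 0.95. The difference then widened, to 1.73 by d2.5 (FDR 0.000202), 2.43 by d3 (FDR 0.000237), 3.30 without Gdf11 (FDR 1.58e-08) and 3.62 with it (FDR 2.07e-11). At d4 the wildtype libraries held 1, 24 and 1 counts of Bcl11a, and the log2 fold change was 6.08 (SE 0.497) without replicate 2, so this library lowered the Bcl11a difference as it did that of Bcl11b. At d4G the Nr6a1-/- libraries stood at 89.9, 79.6 and 60.5 CPM against 9.3, 4.06 and 5.48 CPM in wildtype, again the highest levels of the gene.

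**Figure D2:**
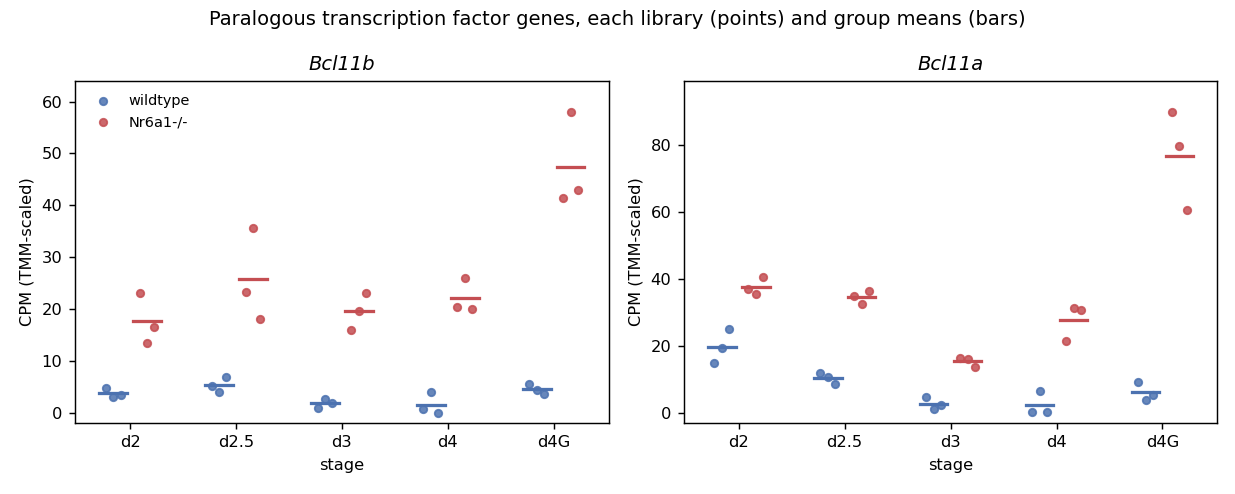
Levels of Bcl11b and its paralogue Bcl11a in CPM (TMM-scaled, linear axes) by stage. Points are libraries and bars are means; both genes lie higher in Nr6a1-/- cells at all 5 stages and highest at d4G, and 1 wildtype d4 library stands above the other 2 in both panels.

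Among 9730 genes whose mean reached 10 CPM in some group, Bcl11a was also the gene whose pattern was most like that of Bcl11b (Pearson's r = 0.879 of log2 CPM over the 30 libraries). The following were Oxct1, an enzyme of ketone body use, at 0.877 and Ppm1k, a mitochondrial phosphatase, at 0.874. These libraries share 10 groups, so the values describe the group pattern. At d4 Oxct1 averaged 47.1 ± 1.78 CPM in wildtype libraries, against 185 ± 13.2 CPM in Nr6a1-/- ones.

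Of 28 NuRD and BAF subunits, 27 were tested, and 0, 3, 3, 5 and 2 of them were called from d2 to d4G in turn, or 0%, 11.1%, 11.1%, 18.5% and 7.41%, where all genes gave 4.07%, 6.45%, 10.8%, 18.9% and 7.9%. The largest difference was that of Bcl7c, a BAF subunit, which was 1.15 higher on the log2 scale at d4 (SE 0.169, FDR 2.28e-06). Mta1, a NuRD subunit, was 0.52 higher there (SE 0.101, FDR 0.000197).

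Cgnl1 was high early and then turned around. At d2 its libraries stood at 22.3, 20.7 and 21.7 CPM for wildtype and 101, 85.7 and 95.2 CPM in Nr6a1-/- cells, a ratio of 4.33 (3.63 to 5.19). At d2.5 the ratio was 2.54 (2.04 to 3.18), and at d3 the groups overlapped, with means of 25.2 ± 7.61 CPM for wildtype and 20.7 ± 2.72 CPM for Nr6a1-/- libraries. At d4 wildtype was higher, at 41.8, 46.1 and 44.1 CPM against 13.9, 17.9 and 24.3 CPM, by 2.37-fold (1.93 to 2.91). At d4G it was higher by 1.82-fold (1.56 to 2.12). The gene was thus gained in Nr6a1-/- cells only at d2 and d2.5 and was lower than wildtype at d4 and d4G.

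In wildtype cells Cgnl1 climbed late. Its level rose from d3 to d4 by 0.83 on the log2 scale (SE 0.168, FDR 0.000367) and again with Gdf11 by 0.77 (SE 0.143, FDR 7.51e-05), by edgeR's quasi-likelihood test. In Nr6a1-/- cells it fell 2.08-fold from d2 to d2.5 (1.83 to 2.37) and 2.16-fold from d2.5 to d3 (1.79 to 2.63) in pooled counts, and rose 2.21-fold with Gdf11 (1.78 to 2.76). The genes of the most similar pattern were Ubqln2, a ubiquitin-binding shuttle protein, at r = 0.712, Fnbp1l at 0.704 and Zfp36l2 at 0.681.

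Of 21 apical junction genes listed, 20 were tested. From d2 to d4G in turn, 1, 0, 0, 1 and 0 of them were called higher and 0, 1, 4, 3 and 5 lower, or 5%, 5%, 20%, 20% and 25% in all, beside 4.07%, 6.45%, 10.8%, 18.9% and 7.9% of all genes. The median log2 fold change of the list was 0.15 at d2 and -0.50 at d4G, against -0.01 and 0.01 over all genes. Cldn6, a claudin of early epithelia, changed sign as Cgnl1 did: it was 0.88 higher at d2 (54.3 ± 4.27 against 100 ± 6.53 CPM, FDR 3e-05), and later lower, with log2 fold changes of -0.51 at d3 (FDR 0.0359), -2.19 at d4 (FDR 7.11e-10) and -1.69 after Gdf11 (FDR 4.67e-06). The d3 call of Cldn6 was lost in 5 of 6 fits that left out 1 library (-0.53 to -0.35). At d4 Cldn7 was also lower (-3.01, FDR 5.35e-10), as was Crb3, a determinant of the apical surface (-2.46, FDR 3.37e-06), while the Rac activator Tiam1 was higher (0.91, FDR 0.00651) but lost its call without wildtype replicate 2 (0.74) or Nr6a1-/- replicate 3 (0.63). Cdh1, which encodes E-cadherin, was called lower at d4G only, at 7.03 ± 1.22 against 18.8 ± 1.42 CPM (-1.39, FDR 0.00487). The 5 markers of surface ectoderm and placode summed to 132 to 137 CPM in wildtype and 45.6 to 55.9 CPM in Nr6a1-/- libraries at d4, and to 105 to 116 and 139 to 157 CPM at d2. At d2.5 their sum was lower in Nr6a1-/- libraries, at 85.4 to 111 against 133 to 142 CPM. At d3 it was 99.3 to 113 against 209 to 212 CPM. Dlx5 alone among them was at 0 in a group (wildtype d2 and d3 and Nr6a1-/- d4). The 6 endoderm markers, of which Cer1 was at 0 in every group, were in sum also lower in Nr6a1-/- cells at d4 and d4G. The sums were 67.7 to 75 against 113 to 200 CPM at d4 and 43.9 to 50.5 against 112 to 143 CPM at d4G. At d2.5 the endoderm sum was higher in Nr6a1-/- libraries, at 519 to 576 against 373 to 447 CPM. At d2 and d3 the ranges overlapped. The part of both lists in the result was not tested, and in bulk RNA fewer cells of a type and less RNA per cell cannot be told apart.

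**Figure D3:**
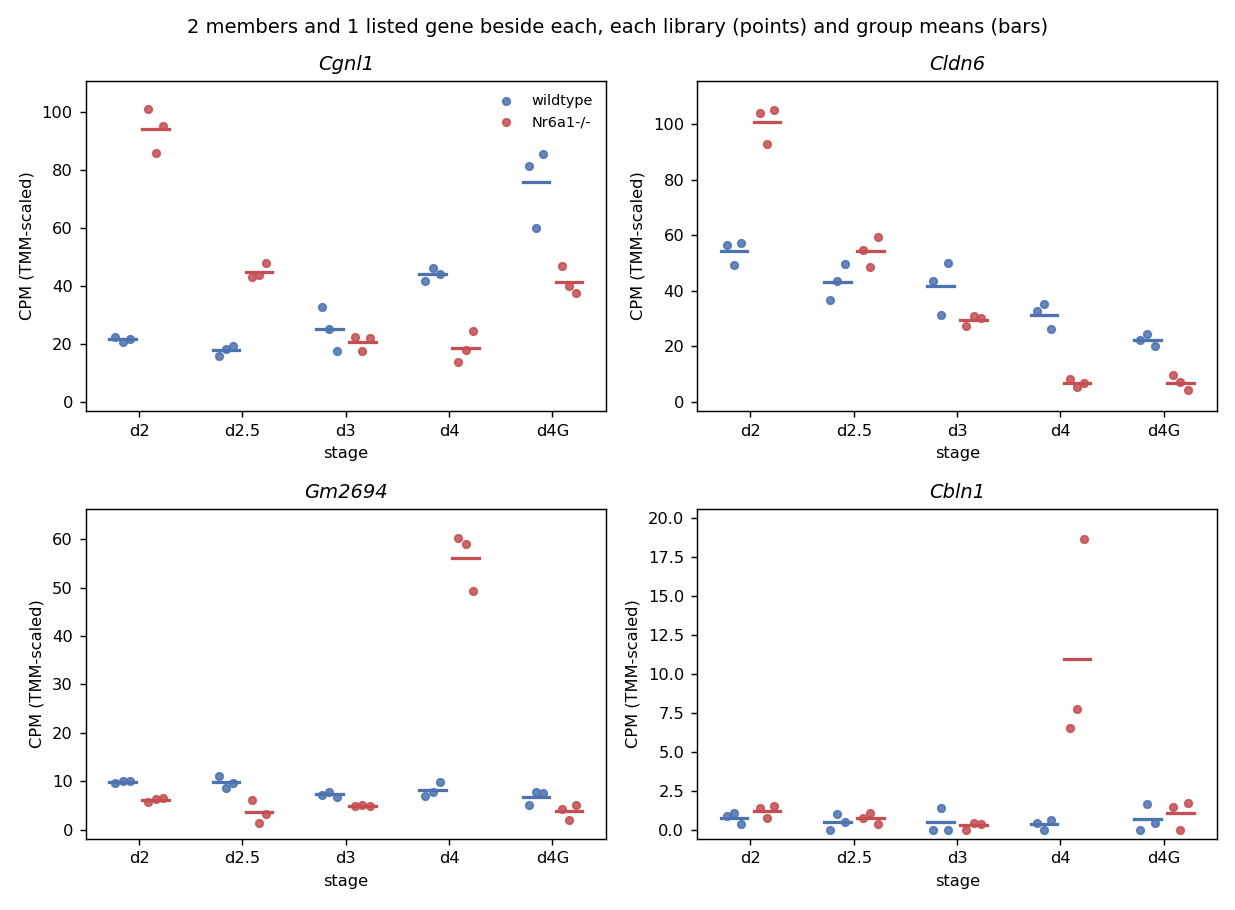
Levels in CPM (TMM-scaled, linear axes) by stage of Cgnl1 beside Cldn6, another junction gene, and of Gm2694 beside Cbln1, which it overlaps. Points are libraries and bars are means; Cgnl1 and Cldn6 are higher in Nr6a1-/- cells at d2 and lower at d4, and Gm2694 and Cbln1 are high in the Nr6a1-/- d4 libraries.

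Kctd12b was an early gain that faded in both genotypes. The wildtype libraries held 2.19, 3.19 and 4.82 CPM at d2 and the Nr6a1-/- libraries 17.9, 17.6 and 10.6 CPM, a ratio of 4.3 (2.77 to 6.93). At d2.5 the pooled counts were 4 and 40, a ratio of 7.32 (2.65 to 28.2), with no overlap. Nr6a1-/- levels dropped 3.14-fold from d2 to d2.5 (2.17 to 4.62) and 3.03-fold from d2.5 to d3 (1.56 to 6.35). The sum of the 6 epiblast markers was also higher in Nr6a1-/- cells at d2, at 3110 to 3190 against 2350 to 2400 CPM with none at 0. Most of that sum was Dnmt3b, with a mean of 2410 CPM against 1720 CPM in wildtype. Utf1 averaged 563 against 527 CPM, Otx2 84.8 against 50.4 CPM, Fgf5 56.1 against 32.1 CPM and Pou5f1 24 against 19.1 CPM. Fibroblast markers were in sum higher too, at 33.4 to 39.1 against 16.5 to 22.7 CPM with Lum at 0. The part of both lists in the d2 values of Bcl11b, Cgnl1 and Kctd12b was not tested. At d3 the libraries held 12 counts of Kctd12b against 2 in wildtype, with Nr6a1-/- replicate 2 at 1 count, and at d4G 1 count against 0.

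The d4 value of Kctd12b rested on 1 library. Wildtype replicate 2 held 21 of the 22 wildtype counts, or 5.8 CPM. With it the ratio of Nr6a1-/- to wildtype counts was 0.188 (0.0359 to 0.624), and without it there was 1 wildtype count against 3 in Nr6a1-/- cells, a ratio of 2.51 (0.202 to 132). The epiblast genes Otx2 and Fgf5 stood at 12.7 and 8.84 CPM in that library and at 0.436 CPM or less in the other 2. Most similar in pattern were Gm32585 (r = 0.89), the peroxiredoxin gene Prdx6 (0.883) and Psors1c2 (0.873). Of the GABA-B receptor genes and their channels, only Gabbr1 of 6 had enough counts to test, with 7.74 ± 2.16 CPM in wildtype libraries against 6.32 ± 1.99 CPM in Nr6a1-/- ones at d2. It was called at 0 of the 5 stages.

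**Figure D4:**
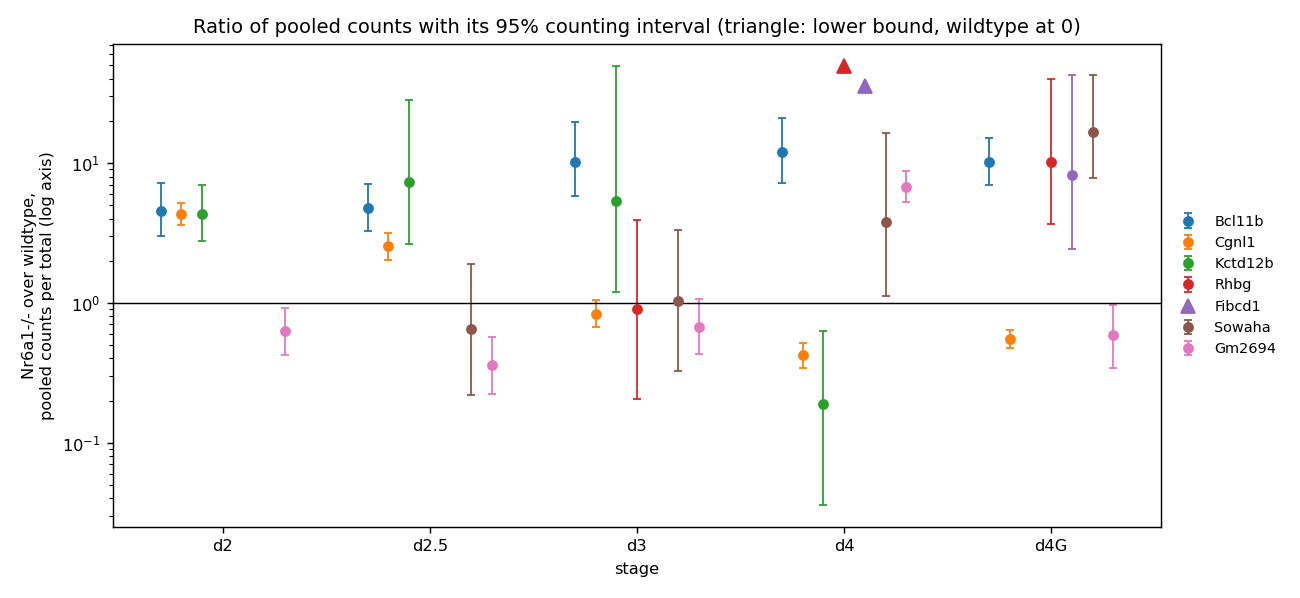
Ratio of pooled counts, Nr6a1-/- over wildtype, on a log axis by stage, with exact 95% intervals that cover counting error only. Triangles are lower bounds where wildtype held 0 counts; points with at most 3 counts in both groups are left out. Bcl11b lies above 1 at all stages, Cgnl1 crosses from 4.33 to 0.423 between d2 and d4, and Rhbg and Fibcd1 have bounds of 49.5 and 35.3 at d4.

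Rhbg and Fibcd1 were at or near 0 in both genotypes until d3 and appeared together at d4 in Nr6a1-/- cells. Rhbg held at most 2 counts in any library up to d3. At d4 the wildtype libraries held 0 counts each and the Nr6a1-/- libraries 42, 27 and 39 counts, or 16 ± 2.63 CPM, at least 49.5-fold higher against 3 counts over the wildtype group. Without wildtype replicate 2, which also held 0, that bound was 30.1. From d3 to d4 Rhbg rose 24.2-fold in Nr6a1-/- cells (10 to 75.9). Fibcd1 had 0 counts in all 12 libraries of d2.5 and d3. At d4 it had 0 counts in wildtype and 27, 26 and 24 counts in the Nr6a1-/- libraries, or 11.5 ± 1.19 CPM, at least 35.3-fold higher. Their fitted rises ranked 1 and 2 of 924 at d4, but with 0 wildtype counts the fitted values are no bound and the ranks are not fixed by the data.

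Both stood lower at d4G than at d4 in Nr6a1-/- cells, a description only, since the genes were chosen for high values at d4. Rhbg stood at 4.33, 10.2 and 4.29 CPM at d4G, 2.75-fold below d4 (1.86 to 4.14), and Fibcd1 at 4.33, 3.18 and 3 CPM, 3.26-fold below d4 (1.99 to 5.57). In wildtype d4G libraries 1 to 2 counts of Rhbg and 0 to 2 counts of Fibcd1 were found, so that Nr6a1-/- counts were 10.2-fold (3.65 to 39.6) and 8.17-fold (2.44 to 42.8) higher. The groups did not overlap for either gene.

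Each was among the genes most like the other, at r = 0.933. Both were chosen for high d4 values in Nr6a1-/- cells and were near 0 in most other groups. This value therefore follows largely from the choice. The nearest to Fibcd1 was Meox1, a homeobox gene of somites, at 0.938, with 4.05 ± 1.03 CPM in wildtype and 201 ± 29.1 CPM in Nr6a1-/- libraries at d4, and 0.988 ± 0.629 and 17.7 ± 4.1 CPM at d4G. Rhbg was followed by Bsg (0.9) and Pgm2 (0.884), and Fibcd1 by Inpp4a (0.874). The 6 paraxial mesoderm markers, Meox1 among them and none at 0 at d4 or d4G, were in sum also higher in Nr6a1-/- cells at these stages. Their sum was 222 to 284 CPM in wildtype and 619 to 636 CPM in Nr6a1-/- libraries at d4, and 85.6 to 103 and 176 to 193 CPM at d4G. In wildtype d3 libraries it was 41.2 to 54.1 CPM, with Meox1 and Foxc2 at 0. The wildtype sum was higher at d4 than at d3, and below the Nr6a1-/- sum at d4. Rhbg and Fibcd1 had 0 counts in wildtype at d4. The part of these markers in the result was not tested.

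Other genes of ammonium and bicarbonate handling changed in both directions. Of 14 listed, 12 were tested. From d2 to d4G in turn, 2, 0, 3, 3 and 1 were called higher and 1, 1, 1, 2 and 3 lower, or 25%, 8.33%, 33.3%, 41.7% and 33.3% in all, beside 4.07%, 6.45%, 10.8%, 18.9% and 7.9% of all genes. Car4, a membrane carbonic anhydrase, was 0.49 higher at d2 (FDR 0.00458) and lower from d2.5, by the most at d4 (-6.11, SE 0.234, FDR 3.11e-21), with 95.8 ± 6.1 CPM left in wildtype libraries and 1.38 ± 0.999 CPM in Nr6a1-/- ones. Car14, a related enzyme, was called higher at every stage but d2.5, by 0.91 to 1.59, and was 0.76 higher at d2.5 without a call (FDR 0.162). Its call was lost without wildtype replicate 3 (0.90) or Nr6a1-/- replicate 3 (0.74) at d2, and without Nr6a1-/- replicate 3 (0.70) at d4. The bicarbonate transporter Slc4a7 (0.69, FDR 1.9e-05) was higher at d4, and Car2 was lower there (-1.46, FDR 1.27e-06). Of the Rh family, Rhd alone was tested and was not called.

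Sowaha was low at every stage but d4G, where it was higher in Nr6a1-/- cells. Up to d4 it held at most 6 counts in any library, and at d4 the groups held 4 and 11 counts, a ratio of 3.78 (1.12 to 16.3). With Gdf11 the Nr6a1-/- libraries reached 33, 44 and 23 counts against 0, 3 and 4 in wildtype, or 17.9 ± 9.25 against 0.968 ± 0.871 CPM, a ratio of 16.7 (7.8 to 42.6). From d4 to d4G its pooled counts differed 10.2-fold in Nr6a1-/- cells (5.47 to 21.1) and 2.32-fold in wildtype (0.589 to 10.8). The gene was chosen on these d4G values, so the steps are a description and their difference was not tested. The Nr6a1-/- libraries differed among themselves, from 9.87 to 28 CPM, and all lay above wildtype.

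The pattern of Sowaha was most like that of a row labelled Sep-08, whose symbol a spreadsheet had turned into a date (r = 0.799). That row averaged 26.6 ± 2.84 CPM in wildtype d4G libraries against 144 ± 10.7 CPM in Nr6a1-/- ones. Next came Hoxd12 (0.77) and the non-coding RNA Hotair (0.766), both of posterior Hox clusters. In d4G libraries Hotair averaged 3.7 ± 0.409 CPM in wildtype cells and 23.6 ± 5.51 CPM in Nr6a1-/- cells, and it was at 0 in all d4 libraries. Sowaha ranked 3 of 344 at d4G, after Hoxb13 and Meox1. Its paralogue Sowahc was tested and not called at any stage.

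Gm2694 rose at d4 alone. Before d4 it was higher in wildtype, with libraries at 9.62 to 10.1 CPM against 5.65 to 6.45 CPM on d2. The ranges were 8.64 to 11 against 1.4 to 6.14 CPM on d2.5 and 6.8 to 7.83 against 4.82 to 5.13 CPM on d3, and the groups overlapped on none of these days. At d4 its wildtype libraries held 6.97, 7.74 and 9.91 CPM against 60.2, 59 and 49.4 CPM in the Nr6a1-/- libraries, a ratio of 6.73 (5.26 to 8.72). At d4G the groups overlapped, at 5.12 to 7.71 and 1.91 to 5.15 CPM. In Nr6a1-/- cells the level rose 11.4-fold from d3 to d4 (8.12 to 16.4) and was 14-fold lower at d4G than at d4 (9.25 to 22.1), while wildtype means stayed between 6.81 and 9.9 CPM at all stages.

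Cbln1, whose start faces that of most Gm2694 transcripts, was called at d4 and at no other stage. Its Nr6a1-/- d4 libraries held 15, 16 and 44 counts against 1, 0 and 2 in wildtype, a log2 fold change of 4.88 (SE 0.657, FDR 4.99e-07), and 4.23 without wildtype replicate 2. The highest library of Cbln1 was the lowest of Gm2694 in that group, at 116 counts. At d4G Cbln1 was back at 3, 0 and 4 counts in Nr6a1-/- cells. Chromosome 8 as a whole was low in Nr6a1-/- cells: of its 653 tested genes, 88.7% had a negative log2 fold change at d2 and 73.7% at d4, with a median of -0.38 and -0.29. At d4 24 of them were called higher and 195 lower. The part of this in the early values of Gm2694 was not tested.

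The genes with the pattern most like Gm2694 were Mgll, a lipase of monoacylglycerol (r = 0.843), and Slc38a8 (0.834) and Necab2 (0.833), both on chromosome 8. At d4 Necab2 averaged 15.4 ± 3.08 CPM in wildtype libraries against 58.3 ± 2.09 CPM in Nr6a1-/- ones, and at d4G 6.67 ± 1.96 against 6.24 ± 2.49 CPM. Slc38a8 went from 0.276 ± 0.24 CPM at d3 to 12.4 ± 1.62 CPM at d4 in Nr6a1-/- cells and was at 0 in all d4G libraries.

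The nearest tested genes with a position, 2 on each side of each member, were tested between genotypes as well. The 26 rows whose symbols had been turned into dates had no position and could not be considered, so a nearer gene may be missing. Sep-08, the row most like Sowaha, is among them, and whether it lies near Sowaha was not checked. Of these 28, 1, 1, 5, 7 and 3 were called from d2 to d4G in turn (3.57%, 3.57%, 17.9%, 25% and 10.7%), against 4.07%, 6.45%, 10.8%, 18.9% and 7.9% of all genes. The largest fitted difference was that of Aldh1a2, the enzyme of retinoic acid synthesis, 330 kb from Cgnl1: its log2 fold change was 1.35 at d3 (FDR 0.000164), rose to 4.96 at d4 (SE 0.167, FDR 1.22e-22) and was 2.37 after Gdf11 (FDR 2.7e-07). Its level at d4 was 12 ± 0.815 CPM in wildtype and 376 ± 8.49 CPM in Nr6a1-/- libraries, at the stage where Cgnl1 was lower than wildtype. Ubqln2, 184 kb from Kctd12b and the gene most like Cgnl1, was higher at d2 only (0.54, FDR 0.00292). N4bp1, 575 kb from Gm2694, had log2 fold changes of -0.37, -0.40, -0.53, -0.60 and -0.68 in stage order, of which the last 3 were called, the d3 one not without wildtype replicate 1 (-0.41). The medians of all chromosome 8 genes were -0.38, -0.38, -0.37, -0.29 and -0.31. Abl1, 9.06 kb from Fibcd1, was higher at d4 (0.58) and lost its call without Nr6a1-/- replicate 2 (0.41). None of the 4 neighbours of Bcl11b was called at any stage. These were Setd3 at 103 kb, Ccnk at 176 kb, Vrk1 at 1830 kb and Papola at 2070 kb.

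Paralogues of the members other than Bcl11a were mostly too low to test. Of 31 listed, 9 were tested, with 1 called at each of the first 3 stages (11.1%) and 2 at each of the last 2 (22.2%), beside 4.07%, 6.45%, 10.8%, 18.9% and 7.9% of all genes from d2 to d4G. Besides Bcl11a these were Mfap4 at d4 (-1.93, FDR 0.00866; -1.43 and not called without Nr6a1-/- replicate 2) and Angpt1 at d4G (-1.15, FDR 0.0485, lost in 5 of 6 fits that left out 1 library), both with a fibrinogen-like domain as in Fibcd1. Cgn, the paralogue of Cgnl1, was tested and not called.

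Steps in wildtype cells were not the contrast that chose the genes, though they use the same wildtype libraries, so a gene chosen for a low wildtype level at 1 stage can appear to change there. Of all genes, 25.4% were called from d2 to d2.5 and 11.5% from d2.5 to d3, and 0 of 7 members at either step, with 1 and 2 at an unadjusted p below 0.05 and 0 and 1 by DESeq2. From d3 to d4 21.1% of genes and 2 members were called, Cgnl1 (above) and Rhbg, which went from 5 counts to 0 (FDR 0.0437). The Rhbg call was lost in each fit that left out 1 of the 6 libraries compared, at log2 fold changes of -4.17 to -3.75 against -3.93 with all of them. At this step 3 members had an unadjusted p below 0.05 and 1 was called by DESeq2. From d4 to d4G 28.8% of genes and 2 members were called, Cgnl1 and Kctd12b, whose fall (-5.51, FDR 0.0112) was lost without wildtype d4 replicate 2 (-2.13, FDR 0.461). Without that library, Bcl11b was called higher with Gdf11 in wildtype (3.50, SE 0.792, FDR 0.00113), where with it the difference was 1.30 (FDR 0.078). At this step 5 members had an unadjusted p below 0.05, and DESeq2 called 3, Bcl11b among them with all libraries kept. By edgeR's quasi-likelihood test, 4429, 2943, 3962 and 4735 of all 12149 genes had an unadjusted p below 0.05 at these steps in order. The members at that threshold are to be read beside these counts. Counts of all genes by DESeq2 are not given here, so nothing is read from its counts of members.

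Across the members, Nr6a1-/- levels at d4G lay on either side of those at d4. Bcl11b (2.1-fold, 1.72 to 2.59), Cgnl1 and Sowaha were higher at d4G than at d4, and Rhbg, Fibcd1 and Gm2694 were lower, with no overlap of the 3 libraries for any of the 6. Kctd12b held 3 counts at d4 and 1 at d4G. Whether these steps differed between genotypes was not tested, as both stages were used to choose the genes. The correlations between members over the 30 libraries ran from -0.438 for Cgnl1 and Gm2694 to 0.933 for Rhbg and Fibcd1, and Bcl11b and Cgnl1, both high in Nr6a1-/- cells at d2, had r = 0.0765. The members were chosen on values of these same libraries, so the correlations are a description only.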

How the data were processed

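Sample labels gave genotype, stage and replicate, and each of the 30 columns of the count table carries the name of 1 library, with 0 columns of per-sample values left over. The authors primed RNA at its poly(A) tail with an index and a molecular identifier, so reads come from 3′ ends. They then amplified pooled samples. In the sample descriptions each d4 library carries the index sequence of a d3 or d4G library, and libraries with the same index cannot have shared a pool. Pools are not given, so stage and pool may not be told apart at the steps from d3 to d4 and from d4 to d4G. Per the labels, reads were aligned with STAR to mm10 (GRCm38). Versions, the annotation, the counting tool and whether identifiers were collapsed are not given in the sources used here. The deposited table holds whole-number counts per gene, not normalised. The authors also deposited 5 tables of their own comparisons (CPM, fold changes and p-values), which were not used here.

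A gene was tested if 2 or more libraries of any group exceeded both 10 counts and 2 CPM, which left 12149 genes, dropped 41985 rows and retained no less than 99.2% of counts per library. After TMM scaling, 1 model with a term for each of the 10 groups was fitted with edgeR 4.0.16 in R 4.3.3. glmQLFTest was run 2-sided for genotype at 5 stages and for 4 wildtype steps, with Benjamini-Hochberg adjustment over all genes. Standard errors are the log2 fold change over the square root of F. Ratios are of counts pooled over 3 libraries, per scaled total, with exact binomial 95% intervals, which cover counting error only. Where a group held 0 counts, the bound is against 3 counts over the group. CPM from 3′ reads was not adjusted for length.

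The members, gene lists, marker lists and rules were chosen with earlier results of these data known. Named genes are the members, their neighbours, the listed genes, and for each member the 3 genes of highest Pearson's r of log2 CPM (prior count 2); at each stage the 3 largest rises were used only to place members by rank. Coordinates are from GENCODE mouse release 21, counted from 1. Replicates within a group differed by more than counting noise (chi-square per gene 1.46 to 7 over 30 pairs). The scripts were tested on simulated data. Alternatives were RLE factors, library totals alone, no filter, DESeq2 1.42.0, only the 2 groups compared, a replicate block, thinning to the smallest total and leaving out each library. The values of 1 listed gene are not reported here.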

Additional observations from a re-analysis of the deposited data

Results flagged for a closer look

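The genotype difference turned around between stages, with all 3 Nr6a1-/- libraries on one side of all 3 wildtype libraries at 1 stage and on the other side at another, for 2 members and for 3 listed genes that were called in both directions. The difference between stages was not tested. The log2 fold change (Nr6a1-/- over wildtype) of Cgnl1 was positive first, 2.12 on d2 and 1.34 on d2.5, then negative, -1.24 without Gdf11 on d4 and -0.86 with it. For Gm2694 it was negative on the first 3 stages (-0.67, -1.46 and -0.56) and 2.75 on d4. For Cldn6 it was 0.88 on d2, then -0.51 on d3, followed by -2.19 on d4 and -1.69 with Gdf11. For Car4 it was 0.49 on d2, followed in stage order by -0.82, -3.49, -6.11 and -2.49. Rbbp7, a subunit shared by NuRD and other complexes, moved least, at 0.31 on d2.5 and -0.29 with Gdf11, and lost its call in 2 and 3 of the 6 fits of each stage that left out 1 library.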

How the results depend on the processing

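The replicate numbers did not pair the samples (27 pairs, r of deviations from -0.111 to 0.163, 2 over 0.1). With a replicate block, 505, 837, 1352, 2383 and 978 genes were called between genotypes from d2 to d4G, against 494, 784, 1308, 2294 and 960, and the number of calls for members in wildtype steps stayed at 4. Of 246 alternative counts, 236 were within 1.5 times the reported one. Fitting only the 2 groups compared gave 1398 genes at d4, and without a filter 7 calls of members in wildtype steps were made instead of 4. Leaving out 1 library gave 304 to 392 genes at d2 (304 without Nr6a1-/- replicate 1, 311 without its replicate 2, 306 without wildtype replicate 3), 478 to 775 at d2.5 (478 and 492 without wildtype replicate 1 and 2, 495 without Nr6a1-/- replicate 1), 871 to 1084 at d3 (871 without wildtype replicate 3) and 1487 to 2625 at d4 (1487 without Nr6a1-/- replicate 3); fewer samples enter these fits. The 16 combinations of member and stage with a rise became 16 to 17. Of 315 alternative member differences, 294 moved by less than the spread between replicates and none of those with separate groups changed direction. Of 896 alternative values of called neighbour and listed genes, 142 lost the call. Depth limits low values: a gene at 0 in 1 library may stand at up to 1.91 CPM. Other scalings moved the median of all genes by at most 0.09.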
